A study of Arabidopsis thaliana with 9 samples.

Results

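The XTH genes of Arabidopsis thaliana encode the xyloglucan endotransglucosylase/hydrolases, and all 33 loci of the numbered family, XTH1 to XTH33, were followed in rosettes of wild type and of 2 lines with an insertion in PDX3. Members were taken by locus ID from the 33602 loci counted, and every one of the 33 was found. The family was picked with its values in these libraries already known, so counts of members that rose or fell describe these libraries and are not an independent test of the family. All plants were of ecotype Col-0, were 21 days old and had grown in soil under long days of 16 hours light and 8 hours dark. Besides wild type, the groups were the insertion line SALK_054167C, called pdx3-3, and the insertion line GK-260E03, called pdx3-4. Each had 3 libraries that the labels call biological replicates, made from polyA-selected RNA of entire rosettes. PDX3 makes pyridoxal 5'-phosphate, the cofactor form of vitamin B6, from its pyridoxine and pyridoxamine phosphate precursors. Each allele was 1 line, so a feature of the line other than the PDX3 insertion cannot be told apart from the allele.

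Xyloglucan is the main hemicellulose of the primary wall of Arabidopsis leaves: a glucan backbone with xylose side chains that lies against and between cellulose microfibrils. Enzymes of the family cut a xyloglucan chain and either rejoin the new end to another chain, the endotransglucosylase reaction, or pass it to water, the hydrolase reaction. The genes are grouped by sequence into group I (11 loci, XTH1 to XTH11), group II (15 loci, XTH12 to XTH26) and group III (7 loci, XTH27 to XTH33). XTH22, also named TCH4, was isolated as a gene induced by touch, and XTH31 is known for hydrolase activity.

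Total counts per library ran from 15912737 to 21938941, and levels are given as CPM, the count scaled by that total. PDX3 itself was read at 90.1, 88.9 and 78.7 CPM in wild type. It held 9.24, 8.22 and 10.8 CPM in pdx3-3 and 43.4, 51.5 and 42.7 CPM in pdx3-4, so it was lower in both insertion lines. Its log2 fold change was -3.25 in pdx3-3 and -0.96 in pdx3-4 (edgeR quasi-likelihood test, adjusted p of 9.54e-08 and 4.37e-05). Libraries 1 and 2 of pdx3-3 stood apart, with 0.536% and 0.175% of counts on chloroplast genes and 0.774% and 0.242% on ribosomal RNA genes. The other 7 libraries had at most 0.0532% and 0.0608%. Summed levels of 5 leaf markers were 44370 to 47000 CPM in wild type, 34330 to 38310 CPM in pdx3-3 and 35250 to 37780 CPM in pdx3-4. The 7 root markers summed to at most 0.214 CPM in any library, and none was over 1 CPM. The 8 floral markers summed to 4.68 to 6.47 CPM in wild type, 4.34 to 6.44 CPM in pdx3-3 and 1.49 to 3.24 CPM in pdx3-4. Within that sum AG fell with both alleles, with log2 fold changes of -2.46 and -3.44 (edgeR adjusted p of 5.92e-05 and 1.13e-05), while SEP1 and SEP3 rose in pdx3-3, by 0.87 and 1.36 (adjusted p of 0.0391 and 0.0142). Whether these shifts bear on the XTH values was not tested. In whole rosettes, fewer cells of a type and less RNA per cell cannot be told apart.

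Of the 33 genes, 19 reached a mean of 5 CPM in at least 1 genotype. No read was counted for 6 genes in any library: XTH1, XTH2, XTH12, XTH20, XTH21 and XTH26. A count of 0 over the 9 libraries allows up to 0.0167 CPM, which covers counting error only. XTH3, XTH11, XTH13 and XTH14 had 1 to 5 reads over all 9 libraries. XTH5, XTH10, XTH15 and XTH29 were low, with XTH29 between 0.0477 and 0.396 CPM throughout. The test across genes kept 22 members, all of which passed the filter on low counts in all 3 genotypes, and 11 members were not tested.

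**Figure D1:**
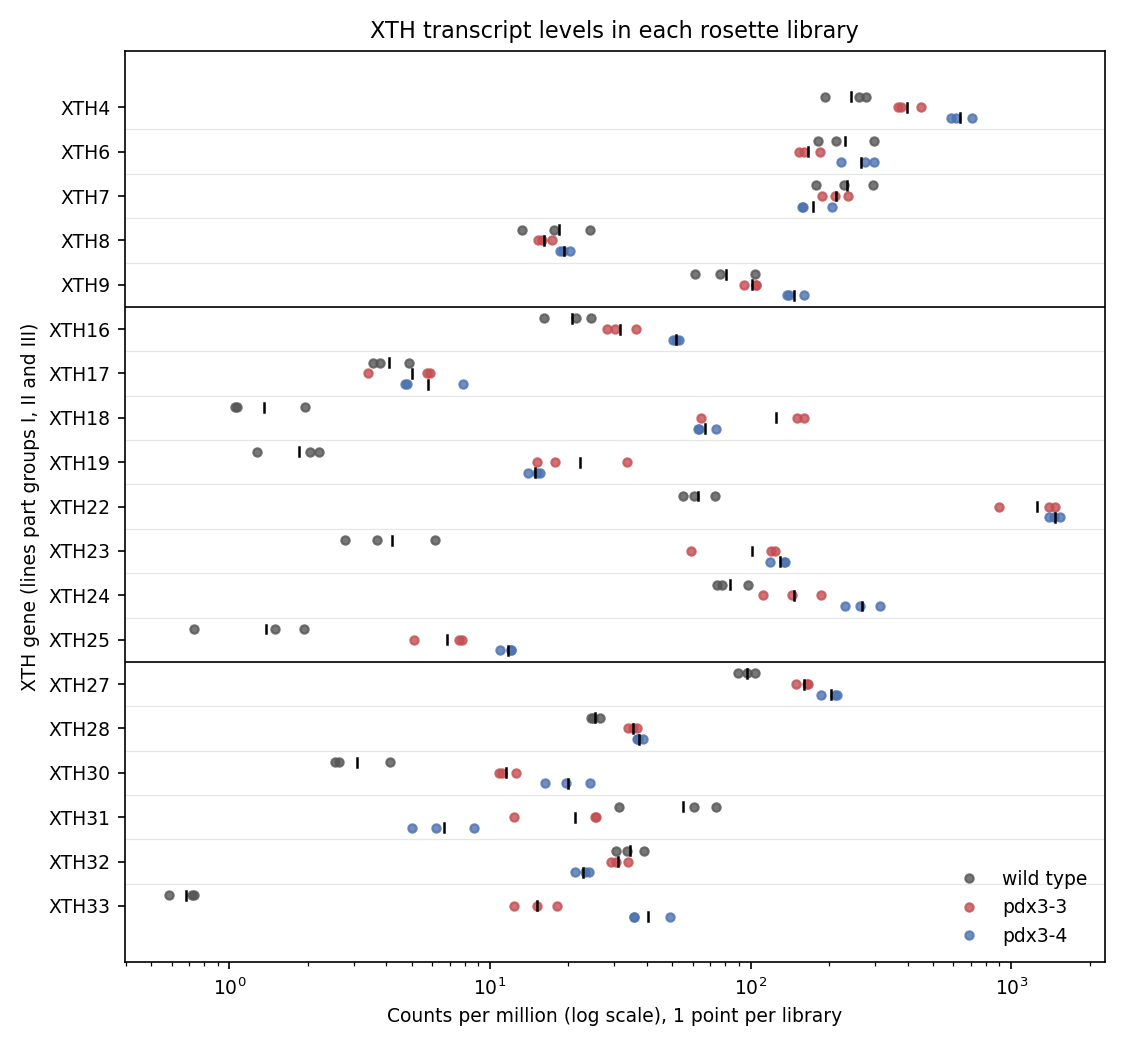
CPM (log axis) of the 19 XTH genes that reached a mean of 5 CPM in at least 1 genotype, 1 point per library, with a black bar at each genotype's mean; horizontal lines part sequence groups I, II and III. XTH4, XTH16, XTH18, XTH19, XTH22, XTH23, XTH24, XTH25, XTH27, XTH28, XTH30 and XTH33 have every mutant library above every wild-type library. XTH31 has every mutant library below. The share of all genes without overlap was not counted.

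Against wild type, 12 of the 22 tested XTH genes rose in pdx3-3 and 2 fell, XTH6 and XTH31. In pdx3-4, 14 rose and 2 fell, XTH31 and XTH32. The largest rises were in XTH18, XTH22, XTH23 and XTH33, at 19.2-fold to 88.6-fold in pdx3-3 and 22.6-fold to 56.4-fold in pdx3-4. The edgeR test called 63.6% of tested members in pdx3-3, where it called 36.5% of all 18783 genes tested, 19.0% higher and 17.5% lower. For pdx3-4 it called 72.7% of tested members and 39.2% of all genes, 20.9% higher and 18.4% lower. The median log2 fold change of the tested members was 0.49 in pdx3-3 and 1.03 in pdx3-4, and the medians of all genes were -0.03 and -0.01. Both comparisons used the same wild-type libraries. Leaving out libraries 1 and 2 of pdx3-3, a setting chosen after seeing the data, left 1 pdx3-3 library, so its calls are not compared with those above. The median log2 fold change of the tested members in pdx3-3 was then 0.49, beside -0.03 for all genes. XTH6 was at -0.57 and XTH16 at 0.50, and the log2 fold change of XTH31 moved from -1.46 to -2.22.

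By sequence group, group II held most of the rises: 7 of its 9 tested genes rose in pdx3-3 and 8 in pdx3-4, and none fell. In group I, 1 of 7 tested genes rose and 1 fell in pdx3-3, and 2 rose in pdx3-4. In group III, 4 of 6 tested genes rose with each allele, while 1 fell in pdx3-3 and 2 fell in pdx3-4. Median log2 fold changes in pdx3-4 were 0.02 for group I, 2.97 for group II and 0.77 for group III. Beside these counts, 19.0% of all genes tested rose and 17.5% fell in pdx3-3, and 20.9% and 18.4% in pdx3-4. The group I shares in pdx3-3, 14.3% higher and 14.3% lower, lay near those of all genes. The grouping was not tested against other splits of the family.

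**Figure D2:**
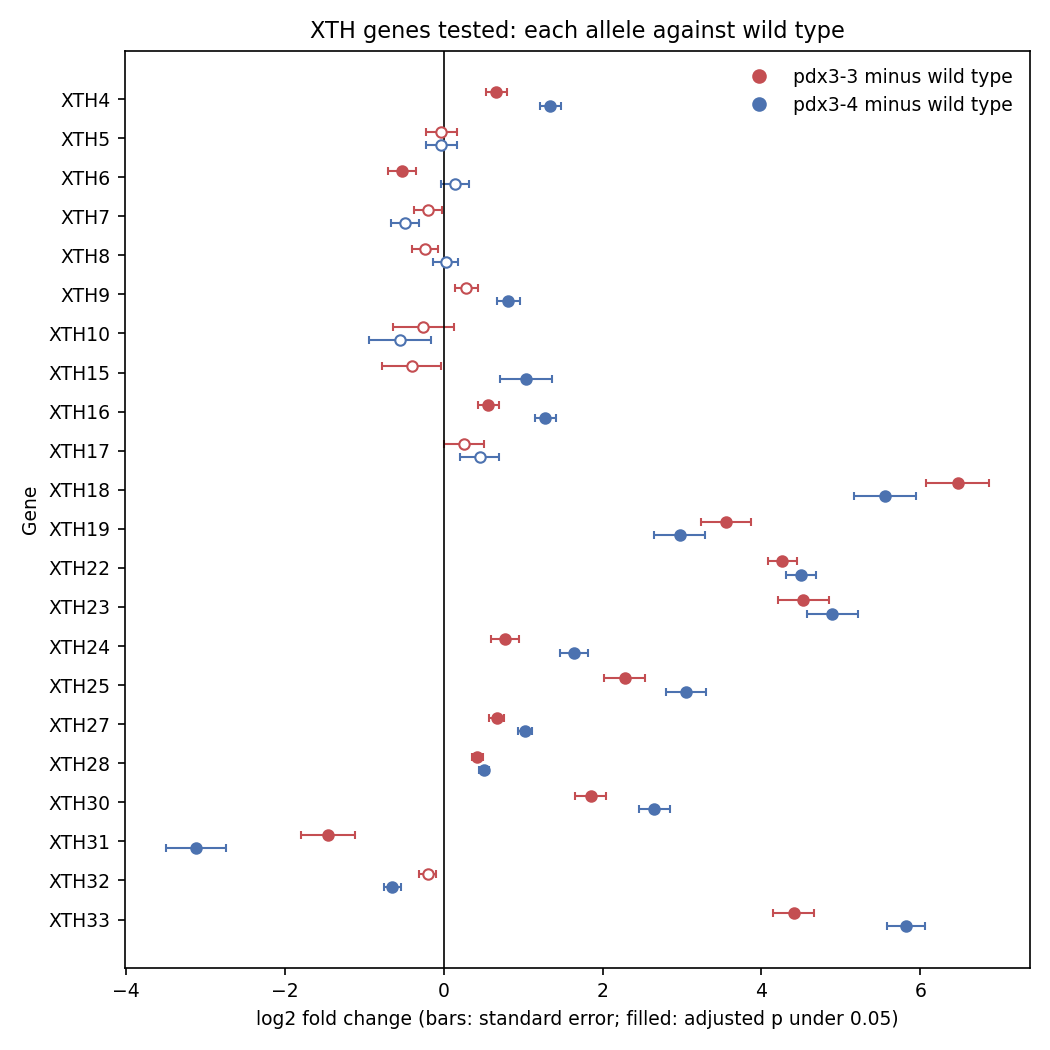
Log2 fold change of each of the 22 tested XTH genes against wild type, red for pdx3-3 and blue for pdx3-4, with bars of 1 standard error and filled points where the adjusted p was under 0.05. XTH18 lies at 6.47 and 5.56, XTH33 at 4.41 and 5.82, and XTH31 lies furthest below 0 at -1.46 and -3.12.

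XTH22 (AT5G57560), the touch gene TCH4, was the most abundant XTH transcript of both mutants. Wild-type libraries held 55.1, 60.8 and 72.9 CPM, pdx3-3 libraries 896, 1400.2 and 1472 CPM, and pdx3-4 libraries 1464, 1402 and 1542 CPM. Every mutant library was above every wild-type library, and library 1 of pdx3-3 was the lowest mutant one. The log2 fold change was 4.26 (SE 0.18) in pdx3-3 and 4.50 (SE 0.19) in pdx3-4, with edgeR adjusted p of 1.94e-07 and 2.75e-07. Between the alleles the log2 difference was -0.23 (SE 0.16), which did not pass the edgeR test (adjusted p = 0.482). Among all 18783 genes, the fold of XTH22 ranked 122 from the highest in pdx3-3 and 38 in pdx3-4.

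XTH23 (AT4G25810), named XTR6 in earlier work and the closest relative of XTH22 in the expressed set with 79.2% coding identity, rose from a low level. It was read at 6.13, 3.69 and 2.78 CPM in wild type, 59.3, 119.8 and 123.7 CPM in pdx3-3 and 119.2, 135.8 and 134.1 CPM in pdx3-4. No mutant library overlapped with wild type, and library 1 of pdx3-3 was the lowest of the 6 mutant libraries. The log2 fold changes were 4.53 (SE 0.32) and 4.89 (SE 0.32) in pdx3-3 and pdx3-4 (edgeR adjusted p of 2.06e-06 and 2.12e-06). The longest run of bases that the coding sequences of XTH22 and XTH23 share is 24.

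XTH18 (AT4G30280) had the largest fold of the family in pdx3-3. It belongs with XTH17, XTH19 and XTH20 to a subgroup of near-copies that is known mostly from roots. Wild type held 1.96, 1.05 and 1.07 CPM, pdx3-3 64.5, 151.0 and 160.1 CPM, and pdx3-4 62.6, 73.5 and 63.5 CPM. All mutant libraries were far above wild type, and within pdx3-3 library 1 sat with the pdx3-4 libraries while libraries 2 and 3 were higher. The log2 fold change was 6.47 (SE 0.39) in pdx3-3, the 11th highest of 18783 genes, and 5.56 (SE 0.39) in pdx3-4, the 13th highest. Between the alleles the log2 difference was 0.91 (SE 0.27, edgeR adjusted p = 0.0748), and without library 1 of pdx3-3 it was 1.22 with an adjusted p of 0.000497.

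Its neighbour XTH19 (AT4G30290) rose from 2.21, 1.28 and 2.03 CPM in wild type to 15.2, 17.7 and 33.6 CPM in pdx3-3 and 15.6, 14.0 and 15.1 CPM in pdx3-4. Library 3 of pdx3-3 was well above the other mutant libraries. The log2 fold changes were 3.55 (SE 0.32) and 2.97 (SE 0.32), with edgeR adjusted p of 1e-05 and 4.05e-05. XTH17 (AT1G65310) held 4.89, 3.56 and 3.80 CPM in wild type, 3.39, 5.75 and 5.86 CPM in pdx3-3 and 7.88, 4.81 and 4.72 CPM in pdx3-4. The groups of XTH17 overlapped, and it was not called with either allele (edgeR adjusted p of 0.470 and 0.171). XTH20 (AT5G48070) had no read.

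How reads of these copies were shared out depends on the authors' counting, whose handling of multi-mapping reads is not given in the sources used here. Coding identity was 87.6% between XTH18 and XTH19, 85.6% between XTH18 and XTH20, and 85.6% between XTH17 and XTH18, so the split of reads among them is uncertain. The longest coding run that XTH18 and XTH19 share is 68 bases, from base 352 of the XTH18 coding sequence and base 337 of that of XTH19 (chromosome 4, RefSeq TAIR10.1). It is shown to make plain how long a stretch cannot tell these 2 genes apart.
XTH18 and XTH19 shared run: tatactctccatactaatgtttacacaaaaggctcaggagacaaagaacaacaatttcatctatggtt

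XTH33 (AT1G10550), which encodes a membrane-localised member of the family, had the lowest wild-type CPM of the genes that rose. It was read at 0.721, 0.729 and 0.589 CPM in wild type, 12.3, 18.1 and 15.1 CPM in pdx3-3 and 35.6, 35.8 and 49.2 CPM in pdx3-4. The 3 genotypes did not overlap, and the order was wild type, pdx3-3, pdx3-4. The log2 fold change was 4.41 (SE 0.26) in pdx3-3 and 5.82 (SE 0.24) in pdx3-4, ranks 106 and 9 from the highest of all genes (edgeR adjusted p of 6.85e-07 and 2.75e-07). The difference of -1.41 (SE 0.16) between pdx3-3 and pdx3-4 passed the edgeR test (adjusted p = 0.00102).

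XTH31 (AT3G44990), known in roots as a xyloglucan hydrolase linked to aluminium sensitivity, moved the other way. Its level was 60.5, 73.6 and 31.2 CPM in wild type, 25.3, 25.6 and 12.4 CPM in pdx3-3 and 8.68, 4.999 and 6.22 CPM in pdx3-4. Wild-type libraries varied, yet the 3 genotypes did not overlap. The gene fell by 1.46 (SE 0.34) on the log2 scale in pdx3-3 and by 3.12 (SE 0.38) in pdx3-4, where it ranked 13 from the lowest of all genes (edgeR adjusted p of 0.00661 and 8.83e-05). XTH32 (AT2G36870), placed with XTH31 in the branch of group III that is known for hydrolases, was read at 30.4, 39.0 and 33.6 CPM in wild type, 33.9, 29.1 and 30.3 CPM in pdx3-3 and 23.9, 23.2 and 21.2 CPM in pdx3-4. It fell in pdx3-4 by 0.65 (SE 0.11, edgeR adjusted p = 0.000701), and its pdx3-3 libraries overlapped those of wild type, with a log2 fold change of -0.20 (adjusted p = 0.159).

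XTH30, XTH27 and XTH28 of group III rose with both alleles, and XTH29 was too low to test. XTH30 (AT1G32170) held 2.63, 2.55 and 4.12 CPM in wild type, 10.9, 11.1 and 12.6 CPM in pdx3-3 and 19.5, 16.3 and 24.2 CPM in pdx3-4, a stepwise order without overlap. Its log2 fold changes were 1.85 (SE 0.20) and 2.65 (SE 0.19), with edgeR adjusted p of 4.08e-05 and 3.65e-06. XTH27 (AT2G01850), required for normal tracheary elements and minor veins in leaves, held 104.2, 96.4 and 89.5 CPM in wild type, 148.7, 165.0 and 165.8 CPM in pdx3-3 and 210.4, 186.3 and 214.7 CPM in pdx3-4. Its rises of 0.67 (SE 0.09) and 1.02 (SE 0.09) on the log2 scale were small beside those of XTH33 but clear of the spread (edgeR adjusted p of 0.000214 and 1.13e-05). XTH28 (AT1G14720), with 77.5% coding identity to XTH27, went from 26.5, 24.4 and 24.9 CPM in wild type to 35.3, 34.0 and 36.6 CPM in pdx3-3 and 38.6, 36.6 and 36.9 CPM in pdx3-4. Its log2 fold changes were 0.42 (SE 0.07) and 0.51 (SE 0.06), with edgeR adjusted p of 0.000478 and 0.000121.

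In the rest of group II, XTH24 (AT4G30270, MERI-5), XTH25 (AT5G57550, XTR3) and XTH16 (AT3G23730) also rose with both alleles. XTH24 was read at 97.7, 74.3 and 77.6 CPM in wild type, 111.7, 144.7 and 185.5 CPM in pdx3-3 and 313.2, 229.7 and 262.4 CPM in pdx3-4. Log2 fold changes of XTH24 were 0.77 (SE 0.18) and 1.64 (SE 0.18), the genotypes did not overlap, and the edgeR adjusted p were 0.00614 and 4.37e-05. XTH25 held 1.49, 0.729 and 1.93 CPM in wild type, 5.09, 7.83 and 7.58 CPM in pdx3-3 and 10.9, 12.07 and 12.05 CPM in pdx3-4. It rose by 2.28 (SE 0.26) and 3.05 (SE 0.25) on the log2 scale (edgeR adjusted p of 5.68e-05 and 6.68e-06). XTH16 held 21.3, 16.0 and 24.5 CPM in wild type, 28.03, 36.2 and 30.04 CPM in pdx3-3 and 50.3, 51.8 and 53.0 CPM in pdx3-4. The genotypes again followed the order wild type, pdx3-3, pdx3-4, with log2 fold changes of 0.56 (SE 0.13) and 1.28 (SE 0.13) and edgeR adjusted p of 0.00663 and 2.57e-05. XTH15 (AT4G14130, XTR7), a gene under the 5 CPM level that is described because it was called, held 1.80, 0.866 and 2.73 CPM in wild type, 1.57, 1.09 and 1.53 CPM in pdx3-3 and 2.77, 4.09 and 4.43 CPM in pdx3-4. It rose in pdx3-4 alone among the calls, by 1.04 (SE 0.33, edgeR adjusted p = 0.029), and that call was lost without wild-type library 1 or 2 or without pdx3-4 library 2 or 3 (adjusted p of 0.0649, 0.077, 0.08 and 0.111).

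Group I held XTH7, XTH4 and XTH6, the most abundant XTH transcripts of wild-type rosettes per length. XTH4 (AT2G06850), linked to leaf expansion, was the group I gene that rose with both alleles: 259.8, 192.1 and 278.0 CPM in wild type, 368.8, 377.8 and 451.9 CPM in pdx3-3 and 612.0, 588.0 and 706.7 CPM in pdx3-4. Its log2 fold changes were 0.66 (SE 0.13) and 1.34 (SE 0.13), without overlap between genotypes (edgeR adjusted p of 0.00259 and 2.29e-05). XTH9 (AT4G03210) was read at 76.4, 61.3 and 104.2 CPM in wild type, 94.6, 105.2 and 104.8 CPM in pdx3-3 and 138.4, 159.6 and 140.6 CPM in pdx3-4. It rose in pdx3-4 by 0.81 (SE 0.14, edgeR adjusted p = 0.00106), while its pdx3-3 libraries lay above wild-type libraries 1 and 2 and around library 3, with a log2 fold change of 0.28 (adjusted p = 0.144).

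XTH6 (AT5G65730) held 296.3, 212.6 and 181.1 CPM in wild type, 185.1, 153.5 and 160.9 CPM in pdx3-3 and 296.8, 221.7 and 274.6 CPM in pdx3-4. It fell in pdx3-3 by 0.52 (SE 0.18, edgeR adjusted p = 0.0387), with library 1 of pdx3-3 above the lowest wild-type library. Leaving out wild-type library 1 brought the log2 fold change to -0.30 and the adjusted p to 0.148, and the call was also lost without wild-type library 2, pdx3-3 library 2 or 3, or pdx3-4 library 3 (adjusted p of 0.0608, 0.126, 0.106 and 0.0546). XTH7 (AT4G37800) held 294.1, 228.1 and 178.5 CPM in wild type, 236.9, 210.6 and 188.2 CPM in pdx3-3 and 206.1, 156.9 and 158.9 CPM in pdx3-4. Its groups overlapped, and its log2 fold changes of -0.20 and -0.48 did not pass the edgeR test (adjusted p of 0.416 and 0.0508). In pdx3-4 it lay at the threshold, and 7 of the 18 other planned fits called it lower, with adjusted p of 0.00452 to 0.0499. XTH8 (AT1G11545) held 17.6, 13.3 and 24.3 CPM in wild type, 17.3, 15.3 and 15.8 CPM in pdx3-3 and 18.6, 20.2 and 19.0 CPM in pdx3-4, and the mutant libraries lay within the wild-type range. XTH5 (AT5G13870), at 2.99 to 4.43 CPM, and XTH10 (AT2G14620), at 0.530 to 1.60 CPM, overlapped between all genotypes and were not called.

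Levels of different genes were compared per kilobase of the longest annotated transcript. In wild type, XTH7 stood at 181 ± 45.02 CPM per kilobase (SD, n = 3), XTH4 at 157 ± 29.2 and XTH6 at 156 ± 40.5, and the libraries of these 3 genes overlapped. XTH24 at 68.8 ± 10.5, XTH27 at 62.6 ± 4.77 and XTH9 at 53.0 ± 14.3 followed, again with overlap between neighbours. XTH22 and XTH31 came next, both with a mean of 39.6. In pdx3-4 the order was led by XTH22 at 924 ± 44.0 CPM per kilobase, XTH4 at 411 ± 40.5 and XTH24 at 222 ± 34.8, and neither XTH22 nor XTH4 overlapped with the gene below it. XTH31 dropped to 4.76 ± 1.35 CPM per kilobase there.

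Summed over all 33 genes, the 3 wild-type libraries held 966, 784 and 799 CPM per kilobase. The pdx3-3 libraries held 1601, 2051 and 2175, and those of pdx3-4 held 2483, 2283 and 2526 CPM per kilobase. Every mutant library was above every wild-type library, and library 1 of pdx3-3 was the lowest mutant one. The largest single share in wild type was 22.5% to 23.6%, taken by XTH7 in libraries 1 and 2 and by XTH4 in library 3. In every mutant library it was XTH22, with 35.2% to 42.9% in pdx3-3 and 37.1% to 38.6% in pdx3-4. Group II supplied 16.2% ± 1.34 of the wild-type sum, 57.8% ± 7.22 of that of pdx3-3 and 56.2% ± 0.664 of that of pdx3-4 (SD, n = 3). Group I went from 66.4% ± 2.58 to 32.4% ± 5.84 and 34.5% ± 0.468 of the sum, although its own summed level was not lower, at 566 CPM per kilobase for wild type, 619 for pdx3-3 and 840 for pdx3-4.

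**Figure D3:**
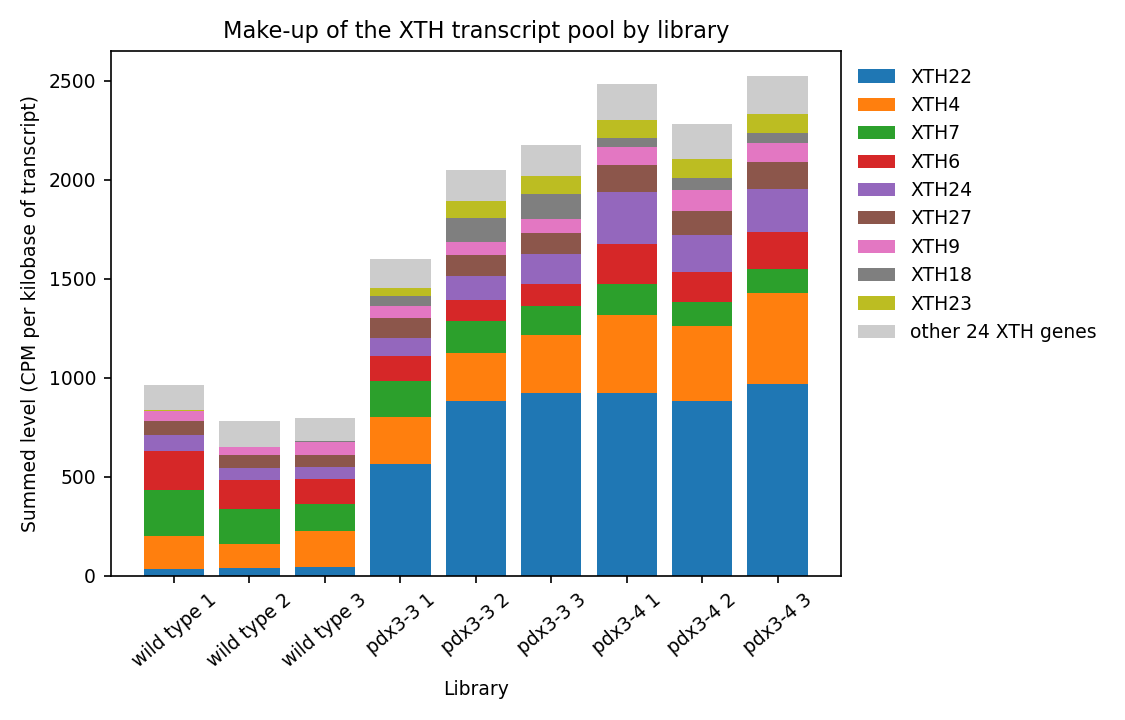
Summed level of the 33 XTH genes in each library (CPM per kilobase of transcript), stacked by gene with 24 genes pooled in grey. The grey genes are not the least abundant in every genotype. In wild type they include XTH31 at 39.6 CPM per kilobase, while XTH18, drawn in colour, is at 1.08. XTH22 is a thin layer in the wild-type libraries and the largest layer in all 6 mutant libraries, at 35.2% to 42.9% of the sum.

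Between the alleles, the XTH genes that differed lay further from wild type in pdx3-4, the line with more PDX3 transcript. Of the 22 tested members, 7 were lower in pdx3-3 than in pdx3-4, namely XTH4, XTH15, XTH16, XTH24, XTH27, XTH30 and XTH33. The 2 that were higher in pdx3-3 were XTH31 and XTH32, which had fallen in pdx3-4. The edgeR test called 40.9% of tested members here and 6.16% of all genes, 3.32% higher and 2.84% lower. Differences were 1.66 (SE 0.38, edgeR adjusted p = 0.0298) for XTH31, -0.87 (SE 0.18, adjusted p = 0.017) for XTH24, -0.80 (SE 0.17, adjusted p = 0.0196) for XTH30 and -0.72 (SE 0.13, adjusted p = 0.0091) for XTH16, on the log2 scale. Of the 4 genes with the largest rises, XTH33 passed this test, and XTH18, XTH22 and XTH23 did not. PDX3 itself was lower in pdx3-3 than in pdx3-4 by a log2 difference of -2.29 (SE 0.12, edgeR adjusted p = 8.56e-06).

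These differences rest on few libraries. XTH33 was called in every one of the 18 other fits planned, and the other 8 were lost in 1 to 8 of them. Without library 3 of pdx3-4, 1 member was lower and 0 higher, and without library 2 of pdx3-3, 2 were lower and 0 higher. Without library 1 of pdx3-3, 4 were lower and 1 higher, and that one was XTH18. With 1 library left out at a time, all genes called between the alleles ran from 391 to 1816, beside 1157 in the main fit. The calls of all genes thus also varied with the library left out. Without both libraries 1 and 2 of pdx3-3, XTH33 alone was lower at -1.42 (adjusted p = 0.0128), and XTH18 and XTH19 were higher at 1.26 and 1.17 (adjusted p of 0.00617 and 0.00854).

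Several XTH genes lie side by side, and neighbours did not always move together. On chromosome 5, XTH12, XTH13, XTH25 and XTH22 sit within 8360 bases on the minus strand. XTH25 and XTH22 rose, while XTH12 had no read and XTH13 a single read over all libraries. On chromosome 4, XTH23 and XTH14 are 363 bases apart on the plus strand, and XTH14 had 1 read in all 9 libraries beside 14356 for XTH23. XTH18 and XTH19, with 1500 bases between them on the minus strand of chromosome 4, both rose. XTH24 also rose with both alleles, and it lies next to XTH18 on the same strand, from base 14819192 to 14820595. XTH18 starts at base 14825757, so XTH24 is just outside the 5 kilobases used here to define neighbours. XTH1 and XTH2, also on chromosome 4, were both without reads.

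**Figure D4:**
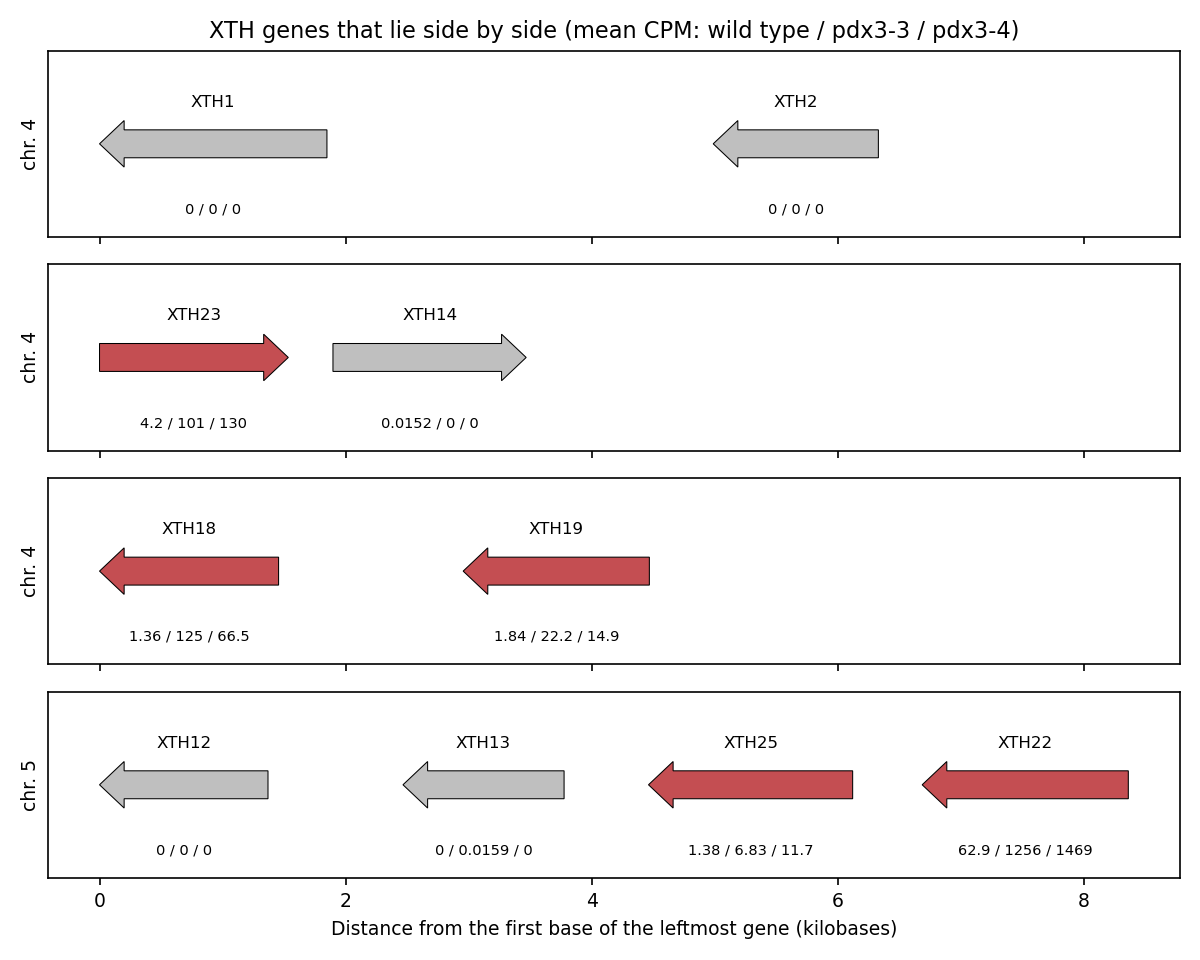
Positions of XTH genes that lie within 5 kilobases of another XTH gene, drawn to scale in kilobases from the first base of each cluster, with arrows along the direction of transcription and the mean CPM in wild type, pdx3-3 and pdx3-4 below each gene. Red marks genes that rose with both alleles and grey marks genes with at most 1 read in all libraries, and both kinds occur in the same cluster.

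Since neighbours differed, the 250 bases upstream of the annotated start are shown for the 4 genes with the largest rises, for XTH14, the nearly unread neighbour of XTH23, and for XTH31, which fell. They are from RefSeq TAIR10.1, written 5' to 3' on the strand of the gene. The windows are chr4:14827212-14827461 (minus strand) for XTH18, chr5:23308681-23308930 (minus) for XTH22, chr4:13128144-13128393 (plus) for XTH23, chr1:3481042-3481291 (minus) for XTH33, chr4:13130041-13130290 (plus) for XTH14 and chr3:16448845-16449094 (minus) for XTH31. Capitals mark matches, on either strand, to 4 short motifs. TTGAC is the core bound by WRKY factors, CGCG the core bound by CAMTA factors and CACGTG the G-box. CGTGNG, where N is any base, is a looser form of an element bound by BZR1.
XTH18: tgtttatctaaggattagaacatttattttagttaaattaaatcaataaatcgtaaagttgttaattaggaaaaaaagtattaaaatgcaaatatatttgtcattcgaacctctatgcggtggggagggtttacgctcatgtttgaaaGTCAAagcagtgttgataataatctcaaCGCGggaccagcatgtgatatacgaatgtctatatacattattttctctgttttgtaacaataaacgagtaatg
XTH22: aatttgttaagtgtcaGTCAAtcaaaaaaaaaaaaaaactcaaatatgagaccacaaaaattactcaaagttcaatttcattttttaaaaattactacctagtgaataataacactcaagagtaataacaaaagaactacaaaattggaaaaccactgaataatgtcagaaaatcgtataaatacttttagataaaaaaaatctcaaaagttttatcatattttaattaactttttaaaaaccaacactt
XTH23: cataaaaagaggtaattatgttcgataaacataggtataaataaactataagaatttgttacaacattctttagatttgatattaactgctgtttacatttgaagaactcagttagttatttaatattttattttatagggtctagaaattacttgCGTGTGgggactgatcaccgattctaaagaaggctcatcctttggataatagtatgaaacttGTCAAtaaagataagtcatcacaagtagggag
XTH33: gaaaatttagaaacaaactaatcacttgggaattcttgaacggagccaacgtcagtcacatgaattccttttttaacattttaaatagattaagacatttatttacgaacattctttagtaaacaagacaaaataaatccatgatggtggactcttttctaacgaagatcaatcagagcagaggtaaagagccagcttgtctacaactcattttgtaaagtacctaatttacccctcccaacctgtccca
XTH14: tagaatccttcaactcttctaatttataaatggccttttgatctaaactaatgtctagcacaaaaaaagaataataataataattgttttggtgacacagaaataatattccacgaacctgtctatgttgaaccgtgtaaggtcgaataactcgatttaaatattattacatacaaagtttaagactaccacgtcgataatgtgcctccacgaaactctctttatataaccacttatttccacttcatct
XTH31: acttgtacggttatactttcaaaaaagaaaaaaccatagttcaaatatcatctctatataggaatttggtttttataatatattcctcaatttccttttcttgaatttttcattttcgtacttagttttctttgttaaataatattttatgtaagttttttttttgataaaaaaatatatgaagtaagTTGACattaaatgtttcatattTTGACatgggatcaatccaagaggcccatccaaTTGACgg

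TTGAC was found once each upstream of XTH18, XTH22 and XTH23, and 3 times upstream of XTH31, which fell. CGCG stood upstream of XTH18, and CGTGNG upstream of XTH23. None of the 4 motifs was in the window of XTH33, which rose, or of XTH14, which had 1 read. Across the family TTGAC was in 15 of 33 windows (45.5%), beside 45.0% of the 26706 windows of this length taken genome-wide, the family included. CGCG was in 3 of 33 (9.09%) beside 10.1%, CGTGNG in 4 of 33 (12.1%) beside 12.4%, and CACGTG in 0 of 33 beside 6.58%. The motifs were chosen with the values known, and these matches are a description of the letters in the windows.

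Of the genes that build xyloglucan, 14 of 16 were tested. In pdx3-3, 4 rose and 3 fell, or 28.6% and 21.4%, beside 19.0% and 17.5% of all genes tested. In pdx3-4, 6 rose and 3 fell, or 42.9% and 21.4%, beside 20.9% and 18.4%, and the median log2 fold change of the list was 0.09 with both alleles. XXT1, a xylosyltransferase that adds the side chains, rose most in this list. It was read at 18.6, 17.9 and 19.96 CPM in wild type, 74.9, 123.8 and 106.7 CPM in pdx3-3 and 114.6, 118.8 and 126.2 CPM in pdx3-4, with log2 fold changes of 2.38 (SE 0.15) and 2.62 (SE 0.15) and edgeR adjusted p of 1.15e-06 and 1.18e-06. CSLC4, a synthase of the glucan backbone, rose by 1.79 (SE 0.17) and 1.51 (SE 0.17) on the log2 scale (edgeR adjusted p of 1.87e-05 and 5.81e-05). XXT5, another xylosyltransferase, rose by 0.95 (SE 0.11) and 1.21 (SE 0.11), with edgeR adjusted p of 6.73e-05 and 1.29e-05. CSLC5, a relative of CSLC4, fell by 0.41 (SE 0.07) and 0.60 (SE 0.07) (edgeR adjusted p of 0.00126 and 8.96e-05). None of the 14 was called between the alleles by edgeR.

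Of 5 genes for enzymes that trim xyloglucan side chains or the oligosaccharides cut from it, 4 rose in pdx3-3 and 3 in pdx3-4, and none fell. The shares called were 80.0% and 60.0%, beside 36.5% and 39.2% of all genes tested, and the median log2 fold changes were 0.57 and 0.50. BGAL10, a beta-galactosidase, rose by 0.78 (SE 0.09) and 1.11 (SE 0.09), and AXY8, an alpha-fucosidase, by 0.86 (SE 0.11) and 1.25 (SE 0.11) on the log2 scale (edgeR adjusted p of 7.08e-05 to 0.000104 in pdx3-3, and 6.41e-06 and 8.53e-06 in pdx3-4). AT5G20950 and AT5G04885, annotated as glycosyl hydrolases, rose by 0.57 and 0.38 in pdx3-3, and in pdx3-4 AT5G20950 rose by 0.50 while AT5G04885 was not called at 0.26 (edgeR adjusted p = 0.0708). BGAL10 was the gene of this list that differed between the alleles, at -0.33 (SE 0.09, edgeR adjusted p = 0.0495).

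The other touch genes isolated with TCH4 rose with both alleles, all 3 of 3, where 19.0% and 20.9% of all genes tested rose. TCH3, a calmodulin-like calcium sensor (CML12), was read at 133.6, 158.7 and 137.6 CPM in wild type, 994, 1352 and 1549.8 CPM in pdx3-3 and 1142, 1179 and 1152 CPM in pdx3-4. Library 1 of pdx3-3 was again the lowest mutant library, and the log2 fold changes were 3.12 (SE 0.15) and 2.96 (SE 0.15) (edgeR adjusted p of 3.46e-07 and 6.38e-07). TCH2, the calmodulin-like CML24, rose by 1.83 (SE 0.14) and 1.64 (SE 0.14), and the calmodulin gene CAM2 by 0.95 (SE 0.09) and 1.21 (SE 0.09), with edgeR adjusted p between 3.73e-06 and 1.59e-05 in all 4 comparisons. None of the 3 differed between the alleles beyond the edgeR threshold.

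Genes of brassinosteroid synthesis, inactivation and response, a hormone pathway known to induce several XTH genes including XTH22, were also counted. The list mixes genes that act for the pathway with some that act against it, such as BAS1, BKI1 and IBH1. Its counts and medians therefore give no direction for the pathway. Of 16 tested of 17, 2 rose and 6 fell in pdx3-3, and 2 rose and 5 fell in pdx3-4. That is 8 and 7 of the 16 called, beside 36.5% and 39.2% of all genes tested, and the median log2 fold changes of the list were -0.20 and -0.29. BR6OX2, which catalyses the last step to brassinolide, held 34.2, 29.5 and 23.7 CPM in wild type, 9.11, 9.07 and 11.5 CPM in pdx3-3 and 17.2, 8.56 and 9.30 CPM in pdx3-4. It fell by 1.61 (SE 0.24) and 1.37 (SE 0.23) on the log2 scale (edgeR adjusted p of 0.000393 and 0.000914). The growth-promoting helix-loop-helix genes PRE1 and PRE6 fell by 1.32 (SE 0.26) and 1.75 (SE 0.20) in pdx3-3 and by 2.75 (SE 0.29) and 2.00 (SE 0.20) in pdx3-4 (edgeR adjusted p of 0.00259, 5.82e-05, 3.55e-05 and 2.4e-05). BZR1, a transcription factor of the pathway, rose by 0.40 (SE 0.08) and 0.55 (SE 0.08), with edgeR adjusted p of 0.00262 and 0.000333.

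**Figure D5:**
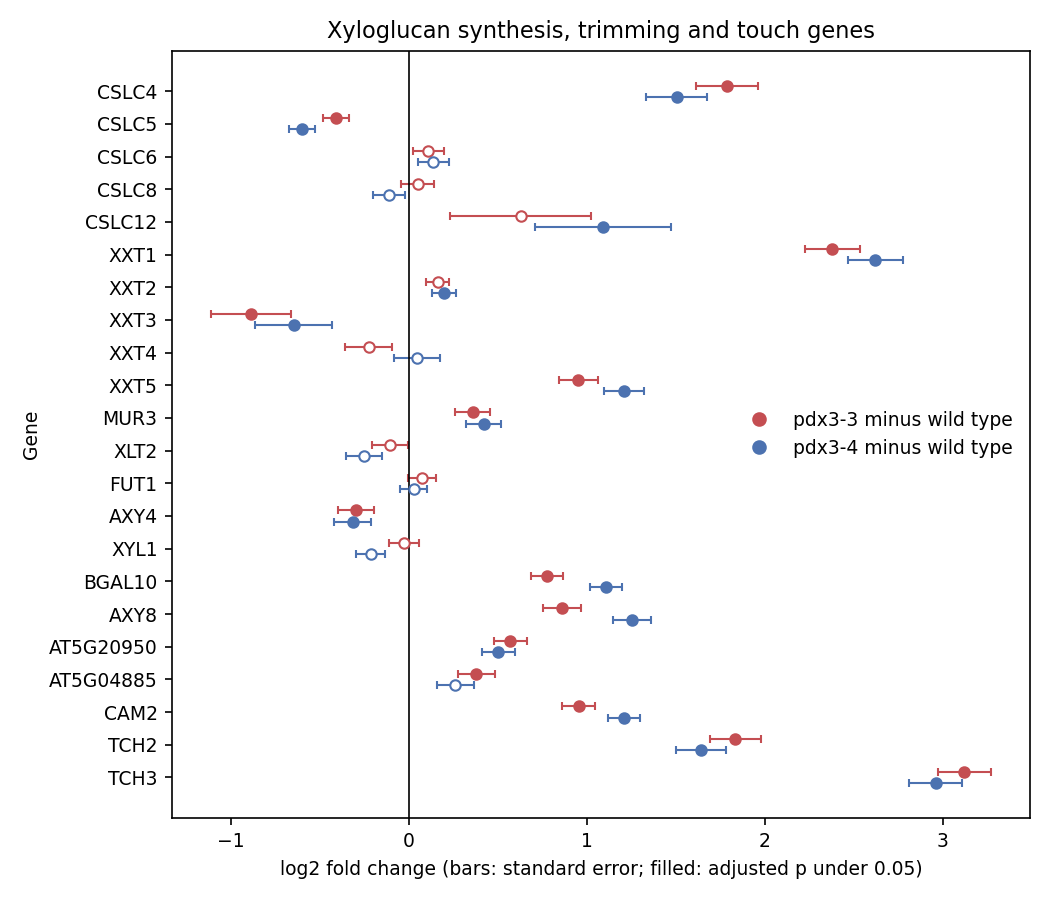
Log2 fold change against wild type of tested genes for xyloglucan synthesis (CSLC4 to AXY4), xyloglucan trimming (XYL1 to AT5G04885) and the other touch genes (CAM2, TCH2, TCH3), red for pdx3-3 and blue for pdx3-4, with bars of 1 standard error and filled points at an adjusted p under 0.05. TCH3 lies at 3.12 and 2.96 and XXT1 at 2.38 and 2.62, while CSLC5 lies below 0 with both alleles.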

How the data were processed

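The 9 deposited tables hold whole-number read counts per gene locus, not normalized, 1 library each. Per the submitters' processing notes, tools were FastQC and TopHat2 (version 2), and the build was TAIR10. How reads were counted, with which strand rule, and what became of multi-mapping reads is not given in the sources used here. Near-copies, overlapping genes and antisense genes are therefore uncertain. Of 33602 locus IDs, 32835 matched the RefSeq TAIR10.1 table. Genes were filtered with filterByExpr, TMM-scaled (factors 0.949 to 1.03) and compared by edgeR's quasi-likelihood test (version 4.0.16, R 4.3.3). The fit held 9 libraries and genotype alone, with 6 residual degrees of freedom. Adjusted p-values are Benjamini-Hochberg values over the 18783 genes tested, called under 0.05; the SE is the log2 fold change over the square root of F. P-values set a genotype difference against the spread between these libraries. With 1 line per allele, they do not cover variation between independent lines. Replicate libraries differed by more than sampling noise (chi-square per degree of freedom 5.53 to 26.7), so each counted once. Coding sequences were compared with Biopython 1.88. The members and gene lists were chosen with earlier results of these data known. Members that average 5 CPM or more in any genotype are described by library, the others by range, and of each other list up to 4 genes with the smallest adjusted p. Alternatives were other size factors, filters, DESeq2 1.42.0, limma-voom (limma 3.58.1), a replicate block, only the 2 genotypes compared, and each library left out.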

Additional observations from a re-analysis of the deposited data

Results flagged for a closer look

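For 9 XTH genes the effects of the alleles differed, by the edgeR test of pdx3-3 against pdx3-4 itself. On the log2 scale, as pdx3-3 minus pdx3-4, the differences were -0.68 for XTH4, -1.44 for XTH15, -0.72 for XTH16, -0.87 for XTH24, -0.36 for XTH27, -0.80 for XTH30 and -1.41 for XTH33, all higher in pdx3-4. They were 1.66 for XTH31 and 0.45 for XTH32, both lower in pdx3-4. In these 9 genes the 3 libraries of one allele did not overlap with the 3 of the other. The same held for XTH6, XTH8, XTH9, XTH25 and XTH28, which were not called. The share of all genes without overlap was not counted, so the lack of overlap adds nothing to the calls. The PDX3 transcript differed by -2.29 in the same comparison.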

How the results depend on the processing

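In the 18 planned fits, 13 of the 14 calls in pdx3-3 against wild type were kept (XTH6 was lost in 7 fits), 15 of 16 in pdx3-4 against wild type (XTH15 was lost in 5) and 1 of 9 between the alleles (XTH33). Calls were gained too: XTH7 lower in pdx3-4 in 7 fits, XTH6, XTH25 and XTH9 lower in pdx3-3 than in pdx3-4 in 9, 6 and 5 fits and XTH18 higher in 1, and XTH8, XTH9 and XTH32 in pdx3-3 against wild type in 1 fit each. The count of members lower in pdx3-3 than in wild type was 1 with library size only, and 1 with only the 2 genotypes compared. Between the alleles, the count of members higher in pdx3-3 was 1 with limma-voom. Same-numbered libraries had correlations of -0.188 to 0.348 in their deviations from the genotype means. Differently numbered libraries had -0.36 to 0.379, so these values cannot settle whether the replicate numbers pair the samples. With the replicate block, 12 members were higher and 2 lower in pdx3-3, 14 higher and 3 lower in pdx3-4, and between the alleles 1 higher and 7 lower. With 1 library left out at a time, the members higher and lower numbered 12 to 13 and 1 to 2 in pdx3-3, 13 to 14 and 2 to 3 in pdx3-4, and 0 to 2 and 1 to 10 between the alleles. All genes called then numbered 5259 to 6832, 5837 to 7483 and 391 to 1816. Without libraries 1 and 2 of pdx3-3, a setting added after seeing the data in which the lone library is assumed to vary like the others, pdx3-3 had 1 member lower than wild type and 4014 genes called. Between the alleles, 1 member was then lower in pdx3-3 and 358 genes were called. Directions turned in 5 comparisons of members that were not called. XTH5 and XTH10 were not followed singly across the fits, so neither this count nor the gained calls cover them. With upper-quartile factors XTH8 was at -0.10 in pdx3-4, and the median of all genes moved to -0.149 and -0.132 in the 2 comparisons with wild type. With 1 library left out, XTH7 ran from -0.37 to 0.00 and XTH15 from -0.74 to 0.00 in pdx3-3, XTH6 from -0.01 to 0.37 and XTH8 from -0.15 to 0.25 in pdx3-4, and XTH17 from -0.33 to 0.07 between the alleles. XTH17 was at 0.01 without both pdx3-3 libraries. The cause of these changes was not tested. Wild-type levels of single members per kilobase of mean transcript length stayed within 1 SD of those given, and mutant levels and sums were not recomputed that way. Depth limits the 10 members with 10 or fewer reads in all.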
